A study of Homo sapiens with 31 samples.

Results

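MCL1 and 9 relatives of the BCL2 family were followed as transcripts through RNA-seq labelled PANC-1, a long-established line of human pancreatic cancer cells. The 10 genes were chosen by name: MCL1, BCL2L1 and BCL2, which protect cells, BAX and BAK1, which kill them, and BCL2L11, BBC3, PMAIP1, BID and BAD, which tip the balance. They are 10 of 58037 gene identifiers in the steady-state tables and 10 of 43682 genes in the actinomycin D tables, and all 10 passed the filters on low counts in both sets.

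The study asked what loss of KHSRP, an RNA-binding protein known for speeding the decay of AU-rich transcripts, does to gene expression and to the lifetime of mRNA. At steady state, 3 libraries of KHSRP knockout cells (KO) were compared with 3 libraries labelled NC, whose genotype label is WT. In the second set, cells of both genotype labels received actinomycin D, an inhibitor of transcription, for 0, 2, 4, 6 or 8 h, with 2 libraries for each genotype label and time. The labels name no clone, guide or plate, and nothing in them ties a replicate to a culture of its own. The p-values therefore measure how far these libraries spread, which may be technical.

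The proteins of this family decide at the outer mitochondrial membrane whether a cell undergoes apoptosis. BAX and BAK1 form the pores, the MCL1, BCL2L1 and BCL2 proteins hold them in check, and the BH3-only proteins BIM (BCL2L11), PUMA (BBC3), NOXA (PMAIP1), BID and BAD relieve that check or act on the pore formers themselves. MCL1 is known for its short-lived mRNA and protein and for amplification or high levels in many cancers.

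Total counts ran from 33706181 to 43278138 per steady-state library and from 19177934 to 25768060 per actinomycin D library. KHSRP stood at 9.49 to 10.6 CPM (counts scaled to library size with TMM factors) in the 3 steady-state KO libraries and at 64.4 to 65.7 CPM in the 3 NC libraries, and at 134 to 156 CPM in the 10 KO-labelled and 375 to 460 CPM in the 10 NC-labelled actinomycin D libraries. The 2 labels of the actinomycin D set differed in more than KHSRP. CDKN2A, known to be deleted in PANC-1, had 0 counts in the 10 KO-labelled and 2728 to 5476 counts in the 10 NC-labelled libraries. At steady state it had 6 counts in each of the 3 KO libraries and 0 in each of the 3 NC libraries. The NC libraries of the 2 sets thus differed in CDKN2A. Of 7 ductal epithelial markers, all 7 reached 1 CPM in the KO-labelled libraries (summed level 4062 to 6505 CPM) and 4 of 7 did in the NC-labelled libraries (2982 to 4581 CPM), where KRT19, SOX9 and EPCAM stayed below 1 CPM. At steady state all 7 reached 1 CPM in both groups. Of 6 immune markers, 2 (CD68 and CD14) reached a mean of 1 CPM in both steady-state groups, with a summed level of 93.1 to 118 CPM in KO and 64.4 to 67.5 CPM in NC libraries. In the actinomycin D set 2 of 6 did in the KO-labelled libraries (113 to 249 CPM summed) and 1 of 6, CD68, in the NC-labelled libraries (10.4 to 15.2 CPM summed). CD68, a macrophage and lysosome marker, averaged 106 ± 14.1 CPM in KO libraries against 62 ± 1.46 CPM in NC libraries at steady state (SD, n = 3 each), while PTPRC, CD3E and LYZ were below 1 CPM in every group. Of 6 fibroblast markers, 2 reached 1 CPM in both steady-state groups (4.42 to 6.28 CPM summed in KO and 3.3 to 3.71 CPM in NC libraries), and 1 in the KO-labelled (24.8 to 52.3 CPM) and 2 in the NC-labelled (27.7 to 36.4 CPM) actinomycin D libraries. COL1A2, DCN, LUM and FAP were below 1 CPM in every group. Of 4 endothelial markers, 1 reached 1 CPM in each group. It was KDR in both steady-state groups and in the KO-labelled actinomycin D libraries, and CDH5 in the NC-labelled ones. The sums were 4.37 to 4.75 CPM in KO and 2.83 to 4.02 CPM in NC libraries at steady state. They were 7.37 to 11.3 CPM in the KO-labelled and 2.2 to 4.58 CPM in the NC-labelled libraries. The acinar and endocrine markers were below 1 CPM throughout. The part of these marker differences in the members' results was not tested. Differences between the KO and NC labels within the actinomycin D set are therefore given as differences between those labelled libraries, and the part of KHSRP in them cannot be told apart from the rest.

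In hg19, the build of the deposited actinomycin D tables, MCL1 lies on chromosome 1 (150547034 to 150552086, minus strand) and its 3 merged exons span 3950 bases. BCL2L1 lies on chromosome 20 (30252255 to 30311766, minus strand), BCL2 on chromosome 18 (60790579 to 60987002, minus strand), BAX on chromosome 19 (49458132 to 49465055, plus strand) and BAK1 on chromosome 6 (33540329 to 33548053, minus strand). Of the BH3-only genes, BCL2L11 lies on chromosome 2 (111878491 to 111926022, plus strand), BBC3 on chromosome 19 (47724081 to 47735924, minus strand), PMAIP1 on chromosome 18 (57567228 to 57571537, plus strand), BID on chromosome 22 (18216904 to 18257431, minus strand) and BAD on chromosome 11 (64037300 to 64052176, minus strand). Use of the strand in counting is not stated, so reads of an overlapping antisense gene cannot be told apart from those of a member.

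Per transcript length, BAD and BID had the highest mRNA levels of the family at steady state and BCL2 the lowest. In KO libraries BAD averaged 36.4 ± 1.63 TPM, BID 33.9 ± 3.85, MCL1 20.6 ± 3.04, BCL2L1 19.3 ± 1.79, BAK1 15.7 ± 1.19, BAX 14.3 ± 2.33, PMAIP1 7.94 ± 2.11, BBC3 3.04 ± 0.217, BCL2L11 0.423 ± 0.0702 and BCL2 0.14 ± 0.0173 TPM (SD, n = 3). Libraries of BAD and BID, of MCL1 and BCL2L1, and of BAK1 and BAX overlapped in that order, and the other neighbours did not. In the NC libraries BAD and BID overlapped, as did BID and MCL1, while MCL1 and BCL2L1 did not. The order was the same as in KO libraries except that BAX (9.04 ± 1.91 TPM) came before BAK1 (8.79 ± 1.18 TPM), with overlapping libraries. There BAD averaged 24.3 ± 2.76, BID 22.4 ± 1.52, MCL1 21.4 ± 0.679 and BCL2 0.23 ± 0.04 TPM (SD, n = 3). Among the protective members, MCL1 and BCL2L1 mRNA thus stood far above BCL2 mRNA per length in both groups. At 0 h of the actinomycin D set, BCL2L1 had the highest RPKM of the family in the KO-labelled libraries (22.4 ± 0.375) and BAX the highest in the NC-labelled libraries (17.4 ± 0.195). MCL1 was at 12.1 ± 0.153 RPKM in the KO-labelled and 12.8 ± 0.381 RPKM in the NC-labelled libraries (SD, n = 2 each).

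The steady-state comparison asked how the family differed in knockout cells. The effector genes BAK1 and BAX and the BH3-only genes BAD and BBC3 were higher in KO libraries, whereas BCL2, BCL2L11 and MCL1 were lower. These 7 of 10 members passed an adjusted p of 0.05 in edgeR's quasi-likelihood test, 4 higher and 3 lower, where 50.6% of the 17240 genes tested passed (24.4% higher, 26.3% lower). The members' median log2 difference was 0.13, against 0.02 over all genes. How many of all genes had KO and NC libraries that did not overlap was not counted. In bulk RNA, fewer cells with a transcript and less of it per cell cannot be told apart.

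Of the protective members, MCL1 stood at 172, 162 and 196 CPM in the KO libraries and at 222, 217 and 224 CPM in the NC libraries. Every KO library was below every NC library in CPM, a log2 difference of -0.32 (SE 0.08, adjusted p = 0.00916). In TPM the groups overlapped, with KO libraries at 22.2, 17.1 and 22.5 and NC libraries at 20.6, 21.5 and 21.9. BCL2, the founding member of the family, was scarce, at 1.66, 1.64 and 1.71 CPM in KO and 2.74, 3.7 and 3.14 CPM in NC libraries (58 to 74 and 94 to 155 counts). The groups did not overlap, and the log2 difference of -0.94 (SE 0.16, adjusted p = 0.00117) was the largest in size among the members. BCL2L1, which encodes BCL-XL, was at 76.3, 105 and 100.2 CPM in KO and 101, 101 and 97.8 CPM in NC libraries. Here KO replicate 1 was the low one, the other KO libraries lay at the NC level, and the log2 difference of -0.09 (SE 0.11, adjusted p = 0.531) did not pass. In TPM the mean of BCL2L1 was higher in KO (19.3 ± 1.79) than in NC libraries (16.8 ± 0.557), with overlapping libraries (SD, n = 3 each).

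Both effectors were higher. BAK1 had 67.9, 76.5 and 82 CPM in KO libraries and 45.1, 55.5 and 48.7 CPM in NC libraries (log2 difference 0.60, SE 0.10, adjusted p = 0.00112). BAX had 23.2, 23.4 and 23.5 CPM in KO and 15.4, 17.7 and 18.2 CPM in NC libraries (0.45, SE 0.09, adjusted p = 0.00238). For both genes the lowest KO library was above the highest NC library.

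The BH3-only genes split. BAD, whose product binds BCL-XL and BCL2, had 57, 62.1 and 58.5 CPM in KO and 47.3, 52.2 and 44.7 CPM in NC libraries (log2 difference 0.30, SE 0.08, adjusted p = 0.0143). BBC3, a p53 target that encodes PUMA, had 8.75, 8.98 and 9.26 CPM in KO and 7.33, 7.35 and 7.5 CPM in NC libraries (0.28, SE 0.09, adjusted p = 0.0272). BCL2L11, which encodes BIM, ran the other way, with 4.16, 3.83 and 3.02 CPM in KO and 6.04, 4.94 and 6.05 CPM in NC libraries (-0.63, SE 0.15, adjusted p = 0.00671). For these 3 genes the groups did not overlap. BID, a substrate of caspase 8, also had all KO libraries (56.4, 59.7 and 59.5 CPM) above all NC libraries (53.4, 52.5 and 52.9 CPM), but its log2 difference of 0.15 (SE 0.07, adjusted p = 0.116) did not pass. In TPM the BID groups lay further apart, at 37.7, 30 and 34.2 in KO and 21, 24 and 22.2 in NC libraries. Differences in TPM were not tested. PMAIP1, which encodes the MCL1-binding protein NOXA, overlapped between the groups, with 39.5, 27.7 and 33 CPM in KO and 30.9, 32.2 and 29.8 CPM in NC libraries (0.11, SE 0.12, adjusted p = 0.473).

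**Figure D1:**
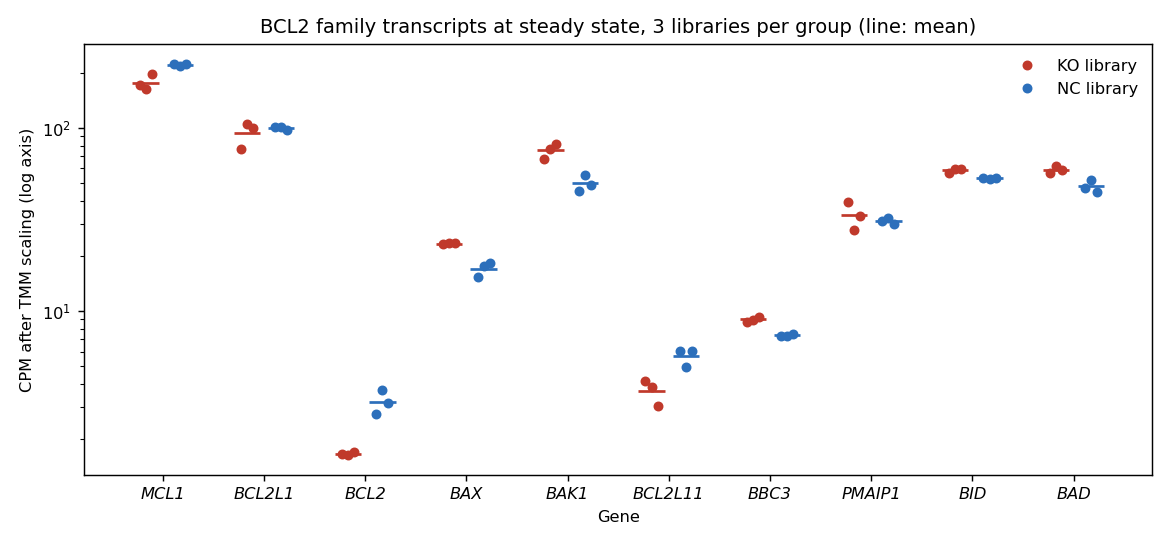
CPM after TMM scaling (log axis) of the 10 members in the 3 KO (red, left) and 3 NC (blue, right) steady-state libraries, with a line at each mean. BAK1, BAX, BAD, BBC3 and BID have all KO points above all NC points, MCL1, BCL2 and BCL2L11 have all KO points below, and BCL2L1 and PMAIP1 overlap. The share of all genes without overlap was not counted.

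The calls of BBC3, BAD and MCL1 were less firm than the others. BBC3 lost its call in 5 of 6 fits that left out 1 library (adjusted p up to 0.0894), without a filter on low counts (adjusted p = 0.093), in DESeq2 (adjusted p = 0.0544) and with a replicate block (adjusted p = 0.0584), and BAD lost it without NC replicate 1 or NC replicate 3 (adjusted p up to 0.074), so that 2 members were called higher in either fit. Without KO replicate 1, BID was called higher too (0.19, adjusted p = 0.0253). With offsets that take a trend with transcript length out of each library, the median of all genes moved to 0.11, the MCL1 difference was -0.07 (adjusted p = 0.531), which is -0.18 relative to that median, and BCL2 (-0.57, adjusted p = 0.0162) and BCL2L11 (-0.39, adjusted p = 0.0393) stayed lower. Under those offsets 5377 genes were higher and 3761 lower, against 4198 and 4528 without them, and 4 members were higher and 2 lower.

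The wider pathway also went both ways at steady state. A list of 15 further genes held BCL2 family genes and partners such as BNIP2. Of these 11 were measured, and 3 were higher and 3 lower (median log2 difference 0.12), where 50.6% of all genes passed. BCL2L12 (0.70, SE 0.08, adjusted p = 0.000103), the BH3-only gene BMF (0.45, SE 0.11) and BCL2L13 (0.31, SE 0.08) were higher, while BNIP2 (-0.83, SE 0.15), the mitophagy receptor gene BNIP3L (-0.75, SE 0.11) and the protective BCL2A1 (-0.54, SE 0.09) were lower. Of 35 genes of the apoptosis machinery (caspases, death receptors, inhibitor of apoptosis proteins, mitochondrial factors and the ubiquitin enzymes that act on MCL1), all 35 were measured, and 7 were higher and 12 lower (median -0.05). Among the inhibitors of apoptosis, BIRC5, which encodes survivin, averaged 217 ± 3.51 CPM in KO and 127 ± 4.52 CPM in NC libraries (0.77, SE 0.07). XIAP, which blocks caspases directly, averaged 49.6 ± 6.69 CPM in KO and 132 ± 9.05 CPM in NC libraries (-1.42, SE 0.11), and BIRC6 was lower by a similar amount (-1.31, SE 0.11). ENDOG (0.51, SE 0.10) and the channel gene VDAC1 (0.44, SE 0.06) were higher, and VDAC2, whose product holds BAK at the mitochondrion, was lower (-1.25, SE 0.11). All of these passed with adjusted p of 0.0121 or less. These values come from the fit without length offsets, and the values of these genes with such offsets are not given here.

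At 0 h of the actinomycin D set, BCL2L1, BAK1 and PMAIP1 were higher and BCL2, BCL2L11, BAX, BID and BAD lower in KO-labelled than in NC-labelled libraries. That is 8 of 10 members, 3 higher and 5 lower, in a comparison where 67.1% of 17715 genes passed (35.5% higher, 31.6% lower). Their median log2 difference was -0.54, against 0.06 over all genes. BCL2L1 was at 152 and 154 CPM in KO-labelled and 72.9 and 70.3 CPM in NC-labelled libraries (1.09, SE 0.06, adjusted p = 1.15e-18), and PMAIP1 at 31.6 and 32.6 against 10.8 and 11 CPM (1.56, SE 0.13, adjusted p = 1.05e-13). BAK1 was at 63.1 and 59.4 CPM in KO-labelled and 28.7 and 26.7 CPM in NC-labelled libraries (1.15, SE 0.10, adjusted p = 2.28e-13). For these 3 genes the libraries of the 2 labels lay far apart.

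Lower in the KO-labelled libraries at 0 h were BCL2 (0.954 and 0.913 against 2.33 and 3.19 CPM, log2 difference -1.56, SE 0.40, adjusted p = 0.000719) and BCL2L11 (5.01 and 4.56 against 8.38 and 9.43 CPM, -0.89, SE 0.21, adjusted p = 0.000214). BAX (37 and 44.3 against 59.7 and 58.9 CPM, -0.55, SE 0.10), BID (45 and 42.2 against 64.3 and 61.4 CPM, -0.53, SE 0.09) and BAD (33.3 and 25.5 against 43.3 and 44.9 CPM, -0.58, SE 0.11) were lower by similar amounts, all with adjusted p of 2.26e-05 or less. MCL1, at 106 and 107 CPM against 117 and 112 CPM, had all KO-labelled libraries below the NC-labelled ones but a log2 difference of only -0.11 (SE 0.05, adjusted p = 0.0685), and BBC3, at 0.954 and 0.644 against 1.79 and 1.31 CPM, gave -0.95 (SE 0.50, adjusted p = 0.0905). MCL1 was called lower by DESeq2 (-0.13, adjusted p = 0.0147) and in a fit of the 0 h libraries alone (-0.14, adjusted p = 0.0392).

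These directions hold relative to the other genes of each library. Scaled to the ribosomal protein genes, the median of all genes moved to 0.49, and 4 members were higher and 2, BCL2 and BCL2L11, lower (8763 and 3558 genes, against 6287 and 5600 with TMM). On the deposited molecule scale, on which each library has its own line, the median moved to 0.83, and 6 members were higher and 0 lower (10279 and 2427 genes). MCL1 then was higher in the KO-labelled libraries, at 0.33 (adjusted p = 5.48e-07) on the ribosomal protein scale and 0.78 (adjusted p = 1.43e-07) on the molecule scale, which are -0.16 and -0.04 relative to the moved medians. BAX, BID and BAD turned to 0.30, 0.31 and 0.26 on the molecule scale, all below its median.

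The same lists at 0 h held single genes with larger differences than any member. Their median log2 differences were 0.04 for the further family and partner genes and 0.16 for the machinery, against -0.54 for the members. BCL2A1, a protective relative, averaged 8.92 ± 0.00475 CPM in KO-labelled and 0.137 ± 0.0604 CPM in NC-labelled libraries, where it had 2 and 4 counts. HRK, a BH3-only gene best known in neurons, had 0 counts in both KO-labelled libraries and 13 and 14 counts in the NC-labelled ones. Of all genes tested, 67.1% passed here. Of 13 further family and partner genes measured, 4 were higher, among them BOK (1.51, SE 0.14) and BCL2L2 (0.87, SE 0.10), and 2 were lower, HRK and BNIP3L (-0.44, SE 0.07). Of 34 measured genes of the machinery, 13 were higher and 12 lower. BIRC3, an NF-kappaB target and ubiquitin ligase, averaged 321 ± 7.49 CPM in KO-labelled and 7.93 ± 0.391 CPM in NC-labelled libraries (5.34, SE 0.09), and its neighbour BIRC2 averaged 208 ± 2.14 against 36.5 ± 1.25 CPM (2.51, SE 0.06). The TNF receptor gene TNFRSF1A was higher (1.82, SE 0.11), and the initiator caspase gene CASP10 (-3.10, SE 0.36), VDAC3 (-1.84, SE 0.06) and ENDOG (-1.38, SE 0.13) were lower.

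Over the labelled hours of actinomycin D, MCL1 mRNA was not highest at 0 h. In the KO-labelled libraries it stood at 106 and 107 CPM at 0 h, 115 and 109 at 2 h, 181 and 181 at 4 h, 409.9 and 414 at 6 h, and 110.0 and 106 at 8 h. In the NC-labelled libraries it stood at 117 and 112 CPM at 0 h, 149 and 141 at 2 h, 371 and 369 at 4 h, 127 and 134 at 6 h, and 94.3 and 94.9 at 8 h. The highest pair was thus at 6 h under the KO label and at 4 h under the NC label, and no library of any other group overlapped either pair. Relative to 0 h of its own label, MCL1 was higher by 1.95 on the log2 scale at KO 6 h (SE 0.05, adjusted p = 1.06e-29) and by 1.69 at NC 4 h (SE 0.05, adjusted p = 8.14e-28). At KO 4 h it was higher by 0.77 (adjusted p = 3.66e-15) and at NC 2 h by 0.34 (adjusted p = 7.72e-07). At 8 h the difference from 0 h did not pass under the KO label (0.02, adjusted p = 0.844), and under the NC label MCL1 fell by 0.28 (SE 0.05, adjusted p = 0.000951). The 4 contrasts of a label share its 0 h libraries. Why the peaks fall where they do was not tested, and the labelled times were kept as given.

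**Figure D2:**
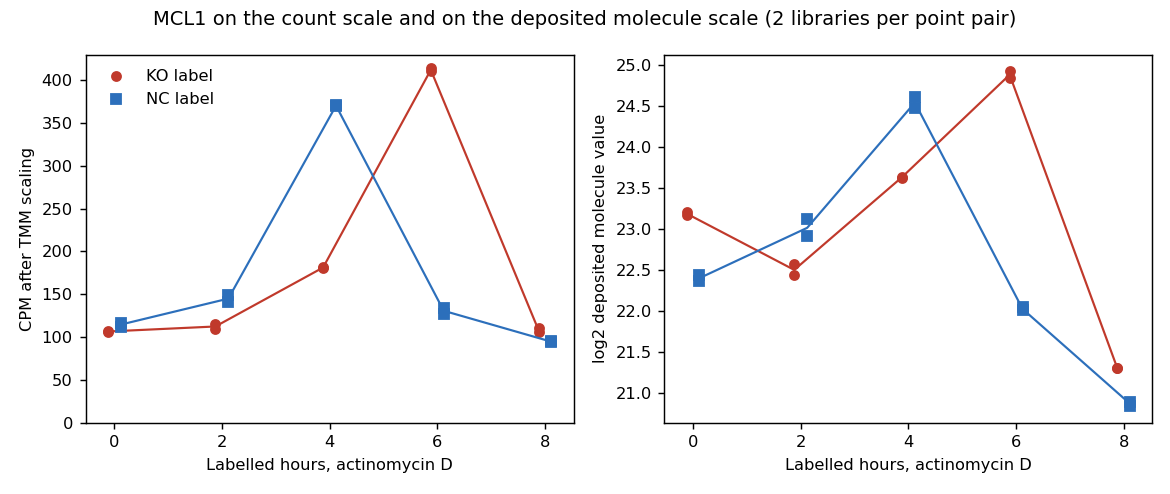
MCL1 in the 20 actinomycin D libraries against labelled hours, as CPM after TMM scaling (left) and as the log2 of the deposited molecule value (right), with KO-labelled libraries as red circles, NC-labelled libraries as blue squares and lines through the means of 2. On both scales the highest pair is at KO 6 h and at NC 4 h.

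On the deposited molecule scale, where libraries are not forced to a common total, MCL1 was also highest at KO 6 h and NC 4 h. The log2 molecule value averaged 24.9 at KO 6 h and 23.2 at KO 0 h, and 24.5 at NC 4 h and 22.4 at NC 0 h. The log2 differences from 0 h were 1.69 and 2.13, while the median of all genes was at -0.47 and 0.28. By 8 h MCL1 was lower than at 0 h on this scale, by -1.88 under the KO label and -1.53 under the NC label, with medians of all genes at -1.68 and -1.10. On the ribosomal protein scale, MCL1 was higher by 2.59 at KO 6 h and 2.30 at NC 4 h.

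The members parted at these times. At KO 6 h, 8 of 10 members passed against 0 h, 5 higher and 3 lower, where 47.7% of all genes passed (19.7% higher, 28% lower). At NC 4 h, 9 of 10 passed, 6 higher and 3 lower, where 51.5% did (27.1% higher, 24.4% lower). The members' median log2 difference was 0.27 at KO 6 h and 0.96 at NC 4 h, against -0.09 and 0.00 over all genes.

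BBC3 and BCL2L11, both BH3-only genes known to be switched on by transcription factors under stress (p53 and FOXO3 among them), followed the MCL1 course most closely. BBC3 stood at 0.954 and 0.644 CPM at KO 0 h, 0.644 and 1.12 at 2 h, 2.27 and 1.98 at 4 h, 5.17 and 6.24 at 6 h, and 2.41 and 0.454 at 8 h. Under the NC label it stood at 1.79 and 1.31 CPM at 0 h, 2.79 and 2.61 at 2 h, 6.26 and 7.73 at 4 h, 1.95 and 1.35 at 6 h, and 1.38 and 1 at 8 h. It was higher by 2.82 at KO 6 h (SE 0.46, adjusted p = 1.57e-06) and by 2.16 at NC 4 h (SE 0.42, adjusted p = 2.53e-05), from as few as 12 counts in a 0 h library. BCL2L11 averaged 14.8 ± 2.8 CPM at KO 6 h against 4.79 ± 0.314 at KO 0 h (1.63, SE 0.20, adjusted p = 4.26e-09), and 25.8 ± 2.37 CPM at NC 4 h against 8.91 ± 0.743 at NC 0 h (1.53, SE 0.19, adjusted p = 2.37e-09). At 8 h it was at 4.77 and 6.11 CPM under the KO label and 7.2 and 9.28 CPM under the NC label, close to 0 h. Because these genes moved with MCL1 their promoters are shown, as the RefSeq windows of GRCh38.p14 from 250 bases before to 50 after the annotated start (9 of 10 members matched, all but MCL1). Capitals mark matches, on either strand, to the forkhead core GTAAACA, the E-box CACGTG and the GC box GGGCGG, none of which overlap each other here.
BCL2L11 (chr2:111120664-111120963, plus strand): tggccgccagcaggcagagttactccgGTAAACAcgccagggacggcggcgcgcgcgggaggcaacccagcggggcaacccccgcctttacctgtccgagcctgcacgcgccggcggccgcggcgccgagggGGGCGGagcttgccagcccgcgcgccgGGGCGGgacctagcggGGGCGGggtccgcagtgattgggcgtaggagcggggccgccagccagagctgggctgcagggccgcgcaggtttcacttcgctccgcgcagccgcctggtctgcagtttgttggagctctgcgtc
BBC3 (chr19:47232618-47232917, minus strand): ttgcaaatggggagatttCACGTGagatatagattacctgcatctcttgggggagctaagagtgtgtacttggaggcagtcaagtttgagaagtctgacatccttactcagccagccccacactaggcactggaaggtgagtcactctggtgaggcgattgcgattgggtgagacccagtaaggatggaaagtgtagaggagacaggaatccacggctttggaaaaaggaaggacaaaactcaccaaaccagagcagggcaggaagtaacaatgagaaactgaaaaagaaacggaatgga
The BCL2L11 window holds 1 forkhead core, present in 3.42% of 35116 RefSeq promoter windows and in 1 of the members, and 3 GC boxes, present in 45% of windows and in 7 members. The BBC3 window holds 1 E-box, present in 7.26% of windows and in 3 members. The other 2 of these members, BAX and BID, did not share the BBC3 course, and a match is only a description of letters.

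BCL2L1 and PMAIP1 went the same way with smaller differences. BCL2L1 was at 152 and 154 CPM at KO 0 h, 137 and 139 at 2 h, 175 and 177 at 4 h, 186 and 169.5 at 6 h, and 118 and 123 at 8 h. Under the NC label it was at 72.9 and 70.3 CPM at 0 h, 96.1 and 112 at 2 h, 161 and 153 at 4 h, 86.3 and 81.4 at 6 h, and 65.1 and 69.7 at 8 h. The difference from 0 h was 0.22 at KO 6 h (SE 0.06, adjusted p = 0.00296, lost without KO 6 h replicate 1, adjusted p = 0.104) and 1.13 at NC 4 h (SE 0.06, adjusted p = 1.57e-18), and at KO 8 h it fell by 0.34 (adjusted p = 4.75e-05). PMAIP1 averaged 40.4 ± 2.34 CPM at KO 6 h against 32.1 ± 0.718 at KO 0 h (0.33, SE 0.12, adjusted p = 0.021), and 18.7 ± 2.89 CPM at NC 4 h against 10.9 ± 0.126 at NC 0 h (0.78, SE 0.14, adjusted p = 3.97e-06). Its call at KO 6 h was lost in 3 of the 4 fits that left out a library of the contrast (adjusted p up to 0.159). BCL2 was at 8.7 and 10.7 CPM at NC 4 h against 2.33 and 3.19 at NC 0 h (1.81, SE 0.33, adjusted p = 9.76e-06), and at 1.64 and 1.51 CPM at KO 6 h against 0.954 and 0.913 at KO 0 h, where the log2 difference of 0.75 (SE 0.41, adjusted p = 0.137) did not pass on 17 to 42 counts.

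BAD, BID and BAX ran the other way. BAD was at 33.3 and 25.5 CPM at KO 0 h, 38.4 and 33 at 2 h, 23 and 22.9 at 4 h, 19.7 and 17.1 at 6 h, and 31.1 and 34.7 at 8 h. Under the NC label it was at 43.3 and 44.9 CPM at 0 h, 39.2 and 43.4 at 2 h, 30.6 and 35.9 at 4 h, 46.8 and 50.4 at 6 h, and 51.6 and 48.8 at 8 h. Its lowest pair was at the time of the MCL1 peak under each label, with a fall of 0.68 at KO 6 h (SE 0.12, adjusted p = 5.4e-06) and of 0.40 at NC 4 h (SE 0.11, adjusted p = 0.00224). BID fell by 0.35 at KO 6 h (34.1 ± 1.17 against 43.6 ± 1.96 CPM, adjusted p = 0.00104) and by 0.52 at NC 4 h (44 ± 3.15 against 62.9 ± 2.05 CPM, adjusted p = 2.48e-06). BAX fell by 0.36 at KO 6 h (31.7 ± 2.67 against 40.6 ± 5.18 CPM, adjusted p = 0.00232) and by 0.25 at NC 4 h (52 and 48 CPM against 59.7 and 58.9 CPM, adjusted p = 0.0253), and its call at KO 6 h was lost without KO 0 h replicate 2 or KO 6 h replicate 1 (adjusted p up to 0.133). At NC 4 h the call of BAX was lost without NC 0 h replicate 1, NC 0 h replicate 2 or NC 4 h replicate 2 (adjusted p up to 0.189) and that of BAD without NC 4 h replicate 1 (adjusted p = 0.0675). Without a filter on low counts, BAX (adjusted p = 0.0599) and BID (adjusted p = 0.0524) lost the call at KO 6 h. BAK1 did not pass at either time, at 58.6 ± 5.07 against 61.3 ± 2.56 CPM at KO 6 h (-0.06, adjusted p = 0.633) and 26.2 ± 0.252 against 27.7 ± 1.47 CPM at NC 4 h (-0.08, adjusted p = 0.568).

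**Figure D3:**
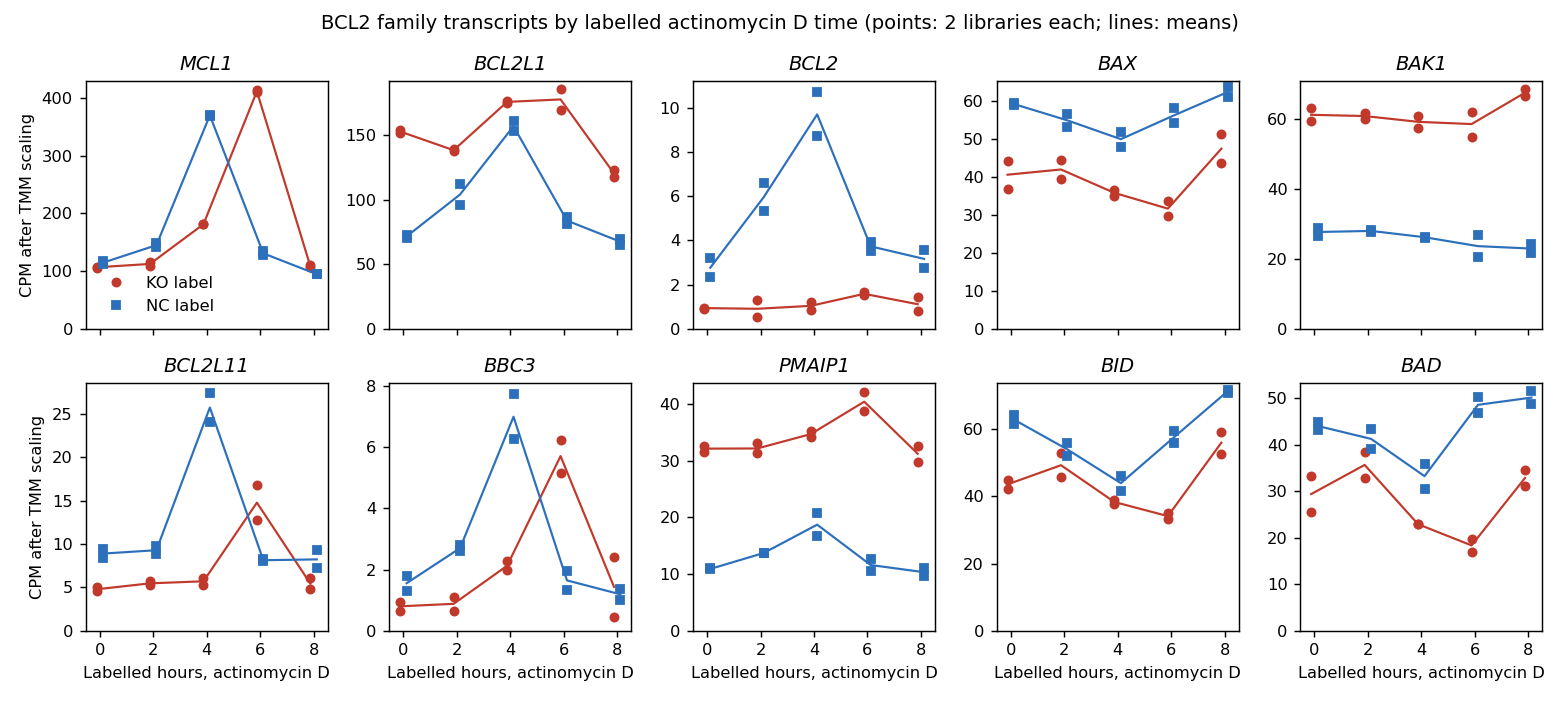
CPM after TMM scaling of each member against labelled hours of actinomycin D, with 2 libraries per point pair and lines through their means, KO label in red circles and NC label in blue squares. MCL1, BCL2L1, BCL2, BCL2L11, BBC3 and PMAIP1 have their highest mean at KO 6 h and at NC 4 h, and BAX, BID and BAD have their lowest means there.

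The falls of BAX, BID and BAD are relative to other transcripts. Scaled to the ribosomal protein genes, the median of all genes stood at 0.52 at KO 6 h and 0.60 at NC 4 h, and 9 members were higher and 0 lower at KO 6 h and 8 higher and 0 lower at NC 4 h (9094 and 113 genes, against 3495 and 4958 with TMM, and 9628 and 241, against 4802 and 4318). Relative to those medians, BAX was at -0.23 and -0.24, BID at -0.23 and -0.51 and BAD at -0.56 and -0.39. On the molecule scale 3 members were higher (MCL1, BBC3 and BCL2L11) and 4 lower at KO 6 h, with 1967 genes higher and 7314 lower, and 6 were higher and 0 lower at NC 4 h, with 6023 and 1221.

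The other labelled times held fewer calls. At KO 2 h 0 of 10 members passed, where 9.16% of genes did (4.87% higher, 4.29% lower). At KO 4 h MCL1, BCL2L1 and BBC3 were higher and BAD lower, 4 members where 27.7% of genes passed (12% higher, 15.7% lower). At KO 8 h BID was higher and BCL2L1 lower, 2 members where 22.1% passed (11.3% higher, 10.7% lower). At NC 2 h MCL1, BCL2L1 and BCL2 were higher and BID lower, 4 members where 31.8% passed (16.9% higher, 14.9% lower). At NC 6 h MCL1 and BCL2L1 were higher, 2 members where 4.42% of genes passed (3.12% higher, 1.3% lower), and at NC 8 h 1 member, MCL1, was lower, where 3.21% passed (1.61% higher, 1.59% lower). The call of MCL1 at NC 6 h (0.19, adjusted p = 0.0197) was lost without NC 0 h replicate 1, NC 0 h replicate 2 or NC 6 h replicate 2 (adjusted p up to 0.244). At KO 4 h 1 member passed without KO 0 h replicate 1 or KO 4 h replicate 2 and 2 without KO 4 h replicate 1, and at NC 2 h 2 passed without NC 0 h replicate 1 or NC 2 h replicate 1.

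**Figure D4:**
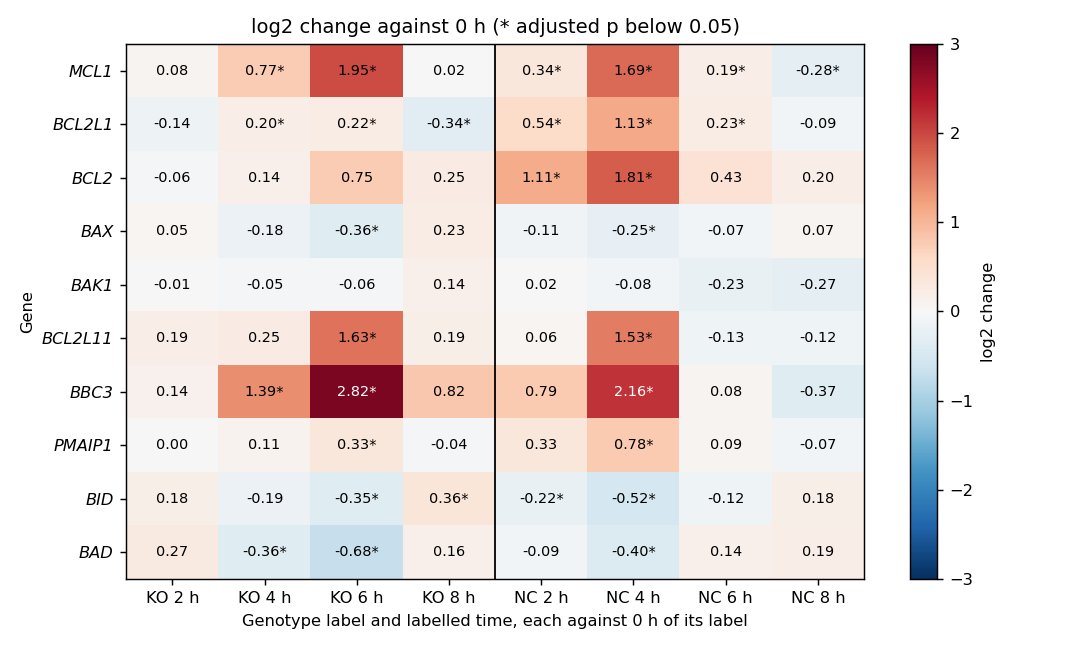
Log2 difference of each member at each labelled time from 0 h of its own label, KO label left and NC label right, with red for higher, blue for lower and an asterisk at an adjusted p below 0.05 (edgeR). BBC3, MCL1 and BCL2L11 are at 2.82, 1.95 and 1.63 at KO 6 h and at 2.16, 1.69 and 1.53 at NC 4 h, and BAD and BID are below 0 in both columns.

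Taking the 5 times together, 8 of 10 members differed over labelled time under the KO label, where 55.9% of genes did, and 10 of 10 under the NC label, where 54.7% did. BCL2 (adjusted p = 0.356) and BAK1 (adjusted p = 0.31) did not pass under the KO label. Leaving out 1 library gave 7 to 8 members under the KO label and 8 to 10 under the NC label. PMAIP1 lost its KO call in 8 of 20 such fits (adjusted p up to 0.378), and BAK1 lost its NC call in 16 of 20 (up to 0.167) and BAX in 3 of 20 (up to 0.221). The NC call of BAK1 was also lost in DESeq2 (adjusted p = 0.113) and without a filter on low counts (adjusted p = 0.0999). On the ribosomal protein scale BAD did not pass under either label (adjusted p = 0.53 for KO and 0.184 for NC) and BID did not pass under the NC label (adjusted p = 0.696), while BCL2 and BAK1 passed under the KO label (adjusted p = 0.00353 and 1.86e-08). The courses of the 2 labels differed for 10 of 10 members by the F test of the interaction, where 55.3% of genes passed, from an adjusted p of 1.27e-28 for MCL1 to 0.0429 for BAK1. BAK1 lost this call in 13 of 20 fits that left out 1 library and BAX in 3 of 20, and both lost it without a filter on low counts (adjusted p = 0.0529 and 0.084). DESeq2 did not call BAK1 (adjusted p = 0.116), and on the ribosomal protein scale BID (adjusted p = 0.117) and BAD (adjusted p = 0.503) did not pass. Without the libraries labelled KO 6 h and NC 4 h, 5, 4 and 4 members passed in these tests. The share of all genes that passed without those libraries is not given here, so the lower counts cannot be read as particular to the members. BAD, BID, BAX, BCL2L1 and MCL1 still passed under the KO label, and the calls of BCL2L11, BBC3 and PMAIP1 were lost under both labels.

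The mean of MCL1, BCL2, BCL2L1, BCL2L11, BBC3 and PMAIP1 was highest at KO 6 h and also at NC 4 h. These are 6 of 10 members, where 22.6% of all genes tested have their highest means at these 2 times. The means of BAX, BID and BAD were lowest at both, 3 of 10 members, where 26.5% of genes were. The mean was highest at both KO 6 h and NC 4 h for 34 of 34 early-response transcripts known for short-lived mRNA (such as FOS, JUN and MYC). It was so for 0 of 20 housekeeping transcripts known for long-lived mRNA (such as GAPDH and ACTB), 2 of 13 further family and partner genes and 9 of 34 genes of the apoptosis machinery. The early-response list had a median log2 difference of 3.21 at KO 6 h and 2.72 at NC 4 h, with 34 of 34 and 33 of 34 called higher, and the housekeeping list had -0.61 and -0.58, with 20 of 20 called lower at both. MCL1, at 1.95 and 1.69, lay within the range of the early-response list (0.58 to 6.25 at KO 6 h and 0.10 to 6.29 at NC 4 h). BAX, BID and BAD, from -0.68 to -0.25, lay within or near the range of the housekeeping list (-0.80 to -0.19 and -0.78 to -0.28). These lists were chosen with earlier results of these data known.

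**Figure D5:**
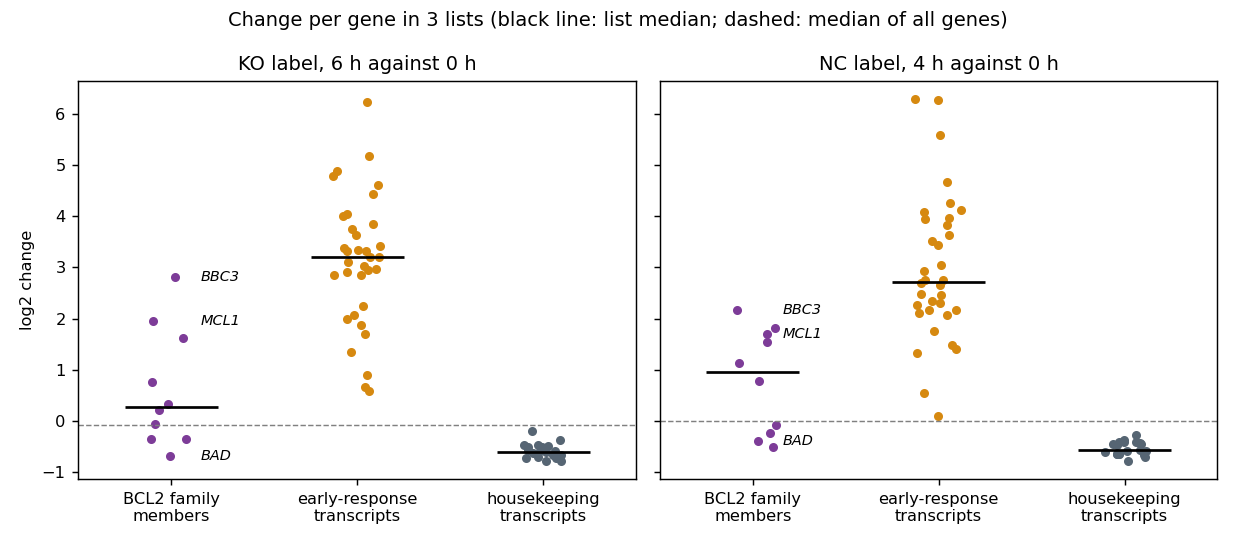
Log2 difference per gene from 0 h at KO 6 h (left) and NC 4 h (right) for the 10 members, 34 early-response and 20 housekeeping transcripts, with a black line at each list's median and a dashed line at the median of all genes. The members span the space between both lists, with BBC3 and MCL1 up at the early-response transcripts and BAD down at the housekeeping ones.

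Across the 20 libraries, after the mean of each label was taken off, the log2 CPM of BCL2L11 correlated with that of MCL1 at r = 0.94, BBC3 at 0.93, PMAIP1 at 0.85, BCL2L1 at 0.82 and BCL2 at 0.74. BAK1 was at -0.06, BAX at -0.81, BAD at -0.87 and BID at -0.88. Among 8388 genes of at least 10 CPM in each label, the 5 most like MCL1 were BHLHE40 (r = 0.992), ZNF292 (0.988), CITED2 (0.988), ZBED5 (0.986) and HIVEP1 (0.983). BHLHE40, a circadian and hypoxia-responsive repressor, averaged 131 CPM at KO 6 h against 11.9 at KO 0 h, and 71.1 CPM at NC 4 h against 7.62 at NC 0 h. CITED2, a co-regulator that binds CBP and p300, averaged 84.7 against 5.61 CPM and 112 against 7.88 CPM. These r values are a description of 20 libraries that fall into 10 groups, not a test.

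Straight-line slopes over labelled time, the usual readout of decay under actinomycin D, gave no call. MCL1 changed by 0.16 log2 CPM per hour under the KO label (SE 0.09) and by -0.04 under the NC label (SE 0.10), a difference of 0.19 (SE 0.14, adjusted p = 1). Among the other members the slope difference ran from -0.06 for BAD (SE 0.05) to 0.37 for BBC3 (SE 0.20). Without the libraries labelled KO 6 h and NC 4 h, MCL1 had 0.015 (SE 0.04) under the KO label and -0.03 (SE 0.03) under the NC label. The difference was then 0.05 (SE 0.05), and the other members ran from -0.03 for BAD (SE 0.03) to 0.20 for BBC3 (SE 0.11). No test of the fit of a straight line was run. For MCL1 the F test of the labelled times together gave F = 684 under the KO label and 567 under the NC label. The F tests of its slopes gave 2.84 and 0.118. Its courses rose to a peak and fell again, which a line cannot follow. Slopes without a call therefore cannot be read as equal decay. In edgeR 0 of 17715 genes passed for either slope or their difference (0%), with 635, 403 and 529 genes at an unadjusted p under 0.05 under the KO label, under the NC label and for the difference, and DESeq2 called 5 higher and 5 lower, 0 and 2, and 3 and 3. On the molecule scale limma called 4 members under each label, BAX, BAK1, BID and BAD, all falling, at -0.16 to -0.21 log2 per hour under the KO label and -0.13 to -0.19 under the NC label. On that scale 9276 of 17715 genes fell and 8 rose under the KO label, and 7713 fell and 1 rose under the NC label. The median slope of all genes was -0.16 under the KO label and -0.14 under the NC label, near those of these 4 members. MCL1 had -0.07 (SE 0.13) and -0.20 (SE 0.13) log2 per hour on that scale and did not pass, and the slope difference passed for 0 members.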

How the data were processed

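RNA-seq of 26 samples was used, 6 at steady state and 20 under actinomycin D; the crosslinking samples were not analysed here. Samples took their group, time and replicate number from their labels. For the steady-state samples the authors deposited, per the file headers, an expected count and a TPM for each gene, in the layout of RSEM. For the actinomycin D samples they deposited counts, RPKM, a signal called molecules and the log2 of that signal. The submitters' processing notes name STAR, RSEM, Bowtie2, deepTools and hg19 and give them no roles. In each library the molecule value lay, on log2 axes, on a straight line against RPKM, with slopes of 0.9996 to 1.22, and no source used here says how the lines were set.

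Expected counts were rounded (23.9% of the nonzero values were not whole) and 45 pseudoautosomal copies were added to their partners. Genes were filtered with filterByExpr, scaled with TMM and tested by edgeR 4.0.16 (R 4.3.3), with a robust quasi-likelihood F test and Benjamini-Hochberg adjustment over all genes at 0.05. The steady-state fit held the 6 libraries. The actinomycin D fit held 1 mean per genotype label and labelled time over 20 libraries, and slopes came from a fit of label, hours and their interaction. SE is the log2 difference divided by the square root of F. Alternatives were DESeq2 1.42.0, limma 3.58.1 on log2 of the deposited molecule value plus 10000, no filter, ribosomal protein scaling, length offsets, a replicate block and leaving libraries out. Scripts were tested on simulated counts.

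The members, lists and tests were chosen with earlier results of these data known. Beside the members, genes were named by a rule: from each pathway list the 3 largest differences in each direction that passed, and the 5 genes most correlated with MCL1. Correlations used log2(CPM + 0.5). Replicates of a group differed by more than sampling noise (chi-square per degree of freedom 3.81 to 42.8 at steady state and 3.90 to 5.30 under actinomycin D), so all were kept. TPM and RPKM served only for the order of members within a group and, for MCL1, BCL2L1 and BID at steady state, for a look at levels between the groups.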

Additional observations from a re-analysis of the deposited data

Results flagged for a closer look

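The courses over labelled time differed between the KO and NC labels for each of the 10 members, by the F test of the interaction in edgeR over 20 libraries. The adjusted p was 1.27e-28 for MCL1, 0.0028 for BCL2, 5.26e-13 for BCL2L1 and 3.97e-11 for BCL2L11. It was 0.0257 for BAX, 0.0429 for BAK1, 5.62e-06 for BBC3 and 0.000224 for PMAIP1, and 0.000141 for BID and 6.46e-07 for BAD. Of all genes tested, 55.3% passed the same test. BCL2, BCL2L11, BAX, BAK1, BBC3 and PMAIP1 lost this call without the libraries labelled KO 6 h and NC 4 h (adjusted p from 0.0577 to 0.817). BID and BAD lost it on the ribosomal protein scale (adjusted p = 0.117 and 0.503), and BAK1 also lost it in DESeq2 (adjusted p = 0.116).

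BAX, BBC3, BID and BAD stood in opposite order in the 2 sets, a difference that was not tested. Each KO library was above each NC library at steady state, and each KO-labelled library was below each NC-labelled library at 0 h of the actinomycin D set. The log2 differences at 0 h were -0.547 for BAX, -0.947 for BBC3, -0.528 for BID and -0.58 for BAD, against 0.45, 0.28, 0.15 and 0.30 at steady state. On the molecule scale BAX, BID and BAD were above 0 at 0 h. Scaled to the ribosomal protein genes, edgeR gave -0.11, -0.09 and -0.14 for BAX, BID and BAD at 0 h. None of these passed (adjusted p = 0.318, 0.375 and 0.282). The NC libraries of the 2 sets also differed from each other, with 0 counts of CDKN2A at steady state and 2728 to 5476 in the actinomycin D set. KRT19, SOX9 and EPCAM were below 1 CPM only in the NC-labelled actinomycin D libraries. In edgeR, BID at steady state (adjusted p = 0.116) and BBC3 at 0 h (adjusted p = 0.0905) did not pass. BBC3 at steady state lost its call in 5 of 6 fits that left out 1 library. Of all genes tested, 50.6% passed at steady state and 67.1% at 0 h. The share of all genes in opposite order in the 2 sets was not counted.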

How the results depend on the processing

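Of 1512 values recomputed under alternatives, 256 counts of members lay within 1.5 times the main count and 36 did not, and of the values of single members 1082 kept direction and call, 104 lost the call, 8 gained it and 26 turned. At 0 h, 6 members were higher and 0 lower on the molecule scale and 2 lower with ribosomal protein scaling. There MCL1 turned to 0.33 (ribosomal) and 0.78 (molecule), and BAX, BID and BAD to 0.30, 0.31 and 0.26 (molecule). At KO 6 h, 9 members were higher and 0 lower (ribosomal), 3 higher (molecule) and 1 lower without a filter. BAX, BAK1 and BID turned to 0.28, 0.58 and 0.29 (ribosomal), BCL2L1 and PMAIP1 to -0.21 and -0.068 (molecule), and BAK1 to 0.062 without a filter and, over fits without 1 library, -0.156 to 0.024. At NC 4 h, 0 were lower (ribosomal or molecule). BAX, BAK1, BID and BAD turned to 0.36, 0.53, 0.089 and 0.20 (ribosomal), and BAX and BAK1 to 0.061 and 0.24 (molecule). MCL1 turned at KO 2 h to -0.049 (ribosomal) and -0.68 (molecule), at KO 8 h to -0.18 (ribosomal), -1.88 (molecule) and, over fits without 1 library, -0.000229 to 0.044, and at NC 6 h to -0.37 (molecule). Members called numbered 1 (ribosomal) and 7 (molecule) at KO 2 h, 8 (molecule) at KO 8 h, 2 (molecule) at NC 2 h, 6 (molecule) and 0 (no filter, or without KO 6 h and NC 4 h) at NC 6 h, and 3 (ribosomal) and 9 (molecule) at NC 8 h. The molecule scale shifted the calls over all genes too: 59 were higher and 10388 lower at KO 2 h, 14 and 14130 at KO 8 h, 2571 and 137 at NC 2 h, 58 and 6733 at NC 6 h, and 18 and 12001 at NC 8 h, of 17715. Without KO 6 h and NC 4 h, 5 members differed over time under the KO label, 4 under the NC label and 4 between courses. The share of all genes in those fits is not given here. On the molecule scale 4 slopes passed under each label, where 9284 (KO label) and 7714 (NC label) of 17715 genes did. Leaving out 1 library gave 2 to 5 members higher at steady state, 3 to 5 higher at KO 6 h, 0 to 1 at KO 2 h, 1 to 3 at KO 4 h, 2 to 3 at NC 2 h and 0 to 1 at NC 6 h, and at steady state it gave BCL2L1 at -0.187 to 0.055 and PMAIP1 at -0.0104 to 0.218. The replicate block left 3 members higher and 3 lower at steady state and ended the call of BBC3 (adjusted p = 0.0584). It changed no other call. Same-numbered libraries deviated together at r = -0.19 to 0.14 at steady state and -0.002 to 0.03 under actinomycin D, so the numbers were not treated as pairs. The causes of these changes were not tested. Depth limits BCL2 and BBC3, with 9 to 42 counts in several actinomycin D libraries.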
